A study of Mus musculus with 3 samples.

Results

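Cycling fibroblasts are matrix-producing stromal cells of the synovium, the soft tissue that lines a joint, whose RNA holds several genes of cell division. They were selected by RNA from the raw UMI counts, where a UMI (unique molecular identifier) stands for 1 captured RNA molecule. A barcode counted as a fibroblast when it held at least 1 UMI of Pdgfra, at least 1% of its UMIs from Col1a1, Col1a2 and Col3a1 together, no UMI of the endothelial gene Cdh5 and at most 1 UMI of the macrophage gene Csf1r. It counted as cycling when at least 3 of the 5 cycle genes Mki67, Top2a, Ube2c, Cenpf and Birc5 were detected. Of 38722 barcodes within the quality limits (200 or more genes, and mitochondrial UMIs no more than 20%), 3829 met the fibroblast gate and 532 of these were cycling. Replicates 1, 2 and 3 held 124, 156 and 252 of them.

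All cells came from the inflamed knee synovium of 6 female, wild-type C57BL/6 mice, 8 weeks old, in the arthritis model C&AIA, which combines immunization with collagen and transfer of antibodies to it. Each mouse received 100 µg of type II collagen on day 0, a cocktail of anti-collagen antibodies (1 mg) on day 21 and LPS, a bacterial endotoxin, on day 22. Tissue was taken in the effector phase and digested with collagenase II and DNase I. Tissue of 2 mice was pooled into each of 3 droplet libraries, which all belong to 1 arthritic group, so the comparisons are between cells of the same libraries and single mice cannot be separated. Cycling fibroblasts were compared with 2162 non-cycling fibroblasts (483, 544 and 1135 in replicates 1, 2 and 3), which passed the same fibroblast gate and held no UMI of any of the 5 cycle genes.

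A dividing cell passes through G1, copies its DNA in S phase, and separates the copies after G2 in mitosis. Genes for replication are switched on at the start of S phase by E2F transcription factors. Genes for mitosis come on later through the B-MYB and FOXM1 complexes, which act at CHR elements in their promoters. Many of these promoters also hold CCAAT boxes, a separate motif. Synovial fibroblasts form a lining layer, marked by the lubricant gene Prg4, and a sublining layer, marked by Thy1, and in arthritis the tissue thickens into an invasive pannus.

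Cycling fibroblasts were deeper than the cells they were compared with. Their median was 21045, 22071 and 18270 UMIs per cell in replicates 1, 2 and 3, against 12375, 11318 and 9759 UMIs in non-cycling fibroblasts. The summed counts per library were 2958615 to 5015893 UMIs for the cycling and 6607269 to 12510173 UMIs for the non-cycling cells. Because a deeper cell detects a given gene more often, each comparison was repeated with every cell thinned to 3000 UMIs. In the gene tests the thinned classes stayed those chosen on all UMIs. Thinning there could not undo the effect of depth on which cells were selected. Selection on thinned cells was tested only for cycling against non-cycling fibroblasts, not for the comparisons with other lineages. A Scrublet doublet score of 0.2 or more was found in 18 cycling cells (3.38%) and 97 non-cycling cells (4.49%). RNA of other cells was present in both classes. The 8 neutrophil markers summed to 2315 to 6119 CPM (the UMIs of a gene per 1000000 UMIs of the summed cells) per library in the cycling and 3252 to 5777 CPM in the non-cycling cells, the 11 monocyte and macrophage markers to 866 to 1266 CPM against 895 to 1399.98 CPM, and the 9 endothelial markers to 42.5 to 70.0 CPM against 44.4 to 68.4 CPM. Of these lists 8, 10 and 9 genes could be tested between the classes, with 0 called by edgeR in any of them (7, 5 and 0 had an unadjusted p under 0.05, and DESeq2 called 0, 0 and 0). Of 5 tested T, NK and B cell markers Cd2 was called higher (log2 fold change 1.15, and 0.54 and not called without replicate 3), and of 4 tested erythroid markers the hemoglobin gene Hba-a2 was called lower (-1.03, and not called without replicate 1, at -0.64, or 3, at -0.97). Of all genes tested, 4.98% were called higher and 3.52% lower. The part of RNA of other cells in the results was not tested beyond these calls. The deposited barcodes are numbered cells with no sequence, so barcodes shared between libraries could not be counted.

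The genes that chose the cells are given as a description, with no test. Mki67, a marker of all active cycle phases, was at 223, 194 and 213 CPM in cycling fibroblasts of replicates 1, 2 and 3 and was detected in 457 of 532 cells (85.9%). Top2a, the topoisomerase that untangles copied chromosomes, was at 299.8, 208 and 270.1 CPM and was detected in 429 cells (80.6%). The survivin gene Birc5 was the most widely detected of the 5, in 494 cells (92.9%), and the kinetochore gene Cenpf the least, in 361 (67.9%). The fibroblast genes of the rule were present, at lower levels in the cycling cells. Pdgfra, the receptor for platelet-derived growth factor, averaged 128 ± 9.02 CPM in cycling and 171 ± 13.8 CPM in non-cycling fibroblasts, and Col1a1 averaged 18178 ± 1553 CPM in cycling and 30973 ± 776 CPM in non-cycling fibroblasts (SD, n = 3 libraries each). Fibroblast markers that the rule did not use were present too, with the decorin gene Dcn at 2689 ± 206 CPM in cycling and 3338 ± 563 CPM in non-cycling fibroblasts and the lumican gene Lum at 550.2 ± 75.8 CPM in cycling and 793 ± 28.2 CPM in non-cycling fibroblasts, and neither was called. Of the 532 cells, 193 (36.3%) held the 1 UMI of Csf1r that the gate allows, against 538 (24.9%) of the non-cycling cells.

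Among the members, 144 held 3 of the 5 cycle genes, 158 held 4 and 230 held all 5. Just outside the limit lay 272 gated fibroblasts with 2 cycle genes and 863 with 1. Cdk1, the kinase that drives entry into mitosis and that the selection did not use, stood in fibroblasts with 0, 1, 2, 3, 4 and 5 of the selecting genes at 10.4, 12.4, 19.5, 44.2, 74.3 and 205 CPM. Mcm5, a subunit of the replicative helicase, stood at 4.52, 7.12, 19.6, 43.7, 68.5 and 53.1 CPM over the same 6 classes. In both genes, cells with 3 selecting genes, just inside the limit, were above cells with 2, just outside it, and those were above cells with 0.

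The promoters of genes of the G2/M programme are shown because 2 short motifs recur in them and those genes were high together in the cycling cells. The sequences are RefSeq's for the mouse build GRCm38.p6, the 100 bases before the gene's start, read 5′ to 3′ on the gene's strand. Capitals mark the CHR element (TTTGAA or TTTAAA) and the CCAAT box, searched on both strands, so that TTCAAA and ATTGG stand for TTTGAA and CCAAT on the other strand, while TTTAAA reads the same on both. Ube2c and Top2a are selecting genes, and Cdk1, Ccnb1 and Cdc20 are not.
Ube2c, promoter on chr2:164769829-164769928, plus strand: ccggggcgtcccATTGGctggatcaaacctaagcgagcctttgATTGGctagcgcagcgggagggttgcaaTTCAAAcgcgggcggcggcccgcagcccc
Top2a, promoter on chr11:99024190-99024289, minus strand: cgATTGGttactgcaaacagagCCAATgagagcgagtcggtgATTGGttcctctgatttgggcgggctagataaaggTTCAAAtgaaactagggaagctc
Cdk1, promoter on chr10:69352913-69353012, minus strand: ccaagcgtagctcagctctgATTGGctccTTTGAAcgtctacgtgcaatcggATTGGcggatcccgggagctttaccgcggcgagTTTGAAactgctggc
Ccnb1, promoter on chr13:100786487-100786586, minus strand: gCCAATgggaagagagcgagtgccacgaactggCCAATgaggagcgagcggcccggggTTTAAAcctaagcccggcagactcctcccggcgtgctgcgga
Cdc20, promoter on chr4:118437344-118437443, minus strand: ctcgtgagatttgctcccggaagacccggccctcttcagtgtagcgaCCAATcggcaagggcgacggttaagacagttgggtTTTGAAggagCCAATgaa
These 5 were chosen for holding both a CHR element and a CCAAT box. Of the 5 selecting genes, Ube2c and Top2a hold both, while Mki67 holds a CHR element alone, Cenpf a CCAAT box alone and Birc5 neither in this window. Promoters were matched for 25 of the 30 listed G2/M genes outside the selection. They include Knl1, which was not among the 29 genes tested and holds neither motif here. Of the 25 genes, 8 (32%) held both motifs, 19 (76%) a CCAAT box and 8 (32%) a CHR element. In the 23 of 28 S-phase genes that were matched, 0 held both, 11 (47.8%) held a CCAAT box and 2 (8.70%) a CHR element. Of all 27025 genes in the table, 2.09% held both motifs in 1 promoter, 21.6% a CCAAT box and 11.3% a CHR element, counting a gene when any of its promoters did. A match of letters is not a bound site, and binding was not measured.

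Most cycling fibroblasts held RNA of both S phase and G2/M, from genes that the selection did not use. A cell's UMIs of 28 S-phase genes and 29 G2/M genes were counted, and both kinds were present in 522 of 532 cells (98.1%). The S-phase UMIs outnumbered the G2/M UMIs in 182 cells (34.2%), and the G2/M UMIs were more in 340 (63.9%). The split differed between libraries, with S-phase UMIs ahead in 47.6%, 33.3% and 28.2% of the cells of replicates 1, 2 and 3. Thinned to 3000 UMIs, S-phase UMIs were ahead in 31.2% and G2/M UMIs in 61.0% of 526 cells. At that depth 89.2% of the cycling and 47.2% of the non-cycling cells held an S-phase UMI, and 92.2% of the cycling and 24.9% of the non-cycling cells a G2/M UMI. These shares depend on how strongly each list is expressed and give no time spent in a phase. The selecting genes are themselves mostly genes of G2 and mitosis.

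Per 10000 UMIs of a cell, the S-phase genes ranged from 0 through a median of 9.90 to 43.8 and the G2/M genes from 0 through a median of 21.8 to 108 in the 532 cells. The median S-phase level was 15.4, 7.78 and 10.0 UMIs per 10000 in replicates 1, 2 and 3, highest in replicate 1, and the median G2/M level was 18.2, 19.5 and 26.0 UMIs per 10000, highest in replicate 3. The plot of both lists per cell shows cells on either side of equality in every library.

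**Figure D1:**
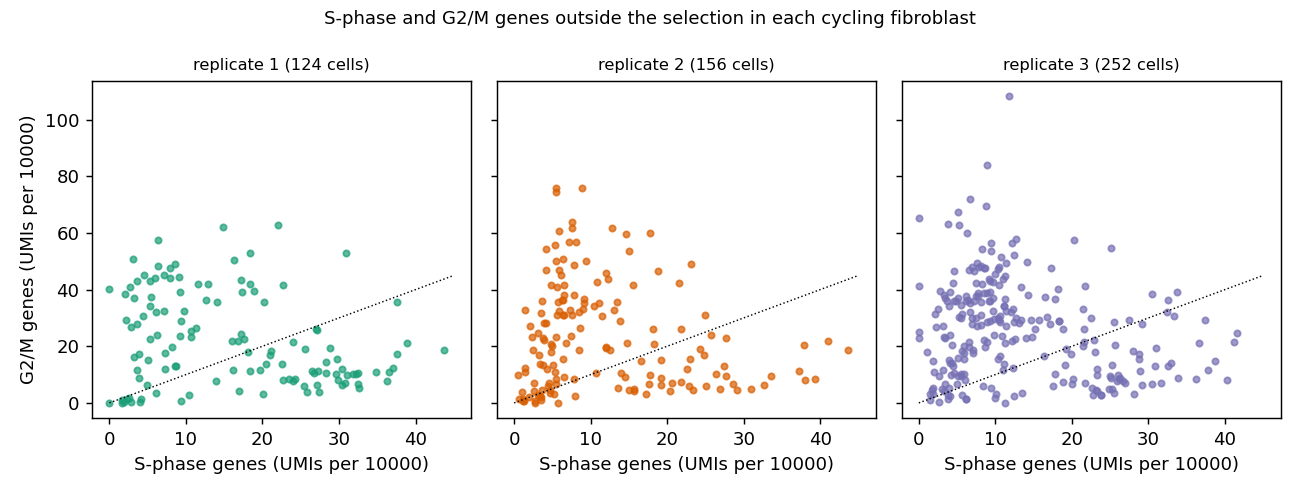
S-phase genes (x axis) and G2/M genes (y axis) in UMIs per 10000 UMIs of the cell, 1 point per cycling fibroblast, with 1 panel for each library and a dotted line where both are equal. In replicate 1, 47.6% of cells lie below the line, against 33.3% in replicate 2 and 28.2% in replicate 3, and the highest G2/M level, 108, is in replicate 3.

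Gene expression of cycling against non-cycling fibroblasts was then tested on UMIs summed per library, with edgeR's quasi-likelihood F-test and the library as a block. Of 12199 genes tested outside the selection, 608 (4.98%) were called higher in the cycling cells and 430 (3.52%) lower, 8.51% in both directions. A gene was called when its p, adjusted by the Benjamini-Hochberg method over all genes tested, was under 0.05 and its level differed by a log2 fold change of 1 or more. Thinned to 3000 UMIs, 354 genes were called higher and 310 lower among 8305 tested, and with the selection itself applied to thinned cells the 2 directions together gave 319 of 6443. All p-values here measure the spread between 3 libraries of pooled tissue, and each class was cut from the same UMIs that were then tested.

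**Figure D2:**
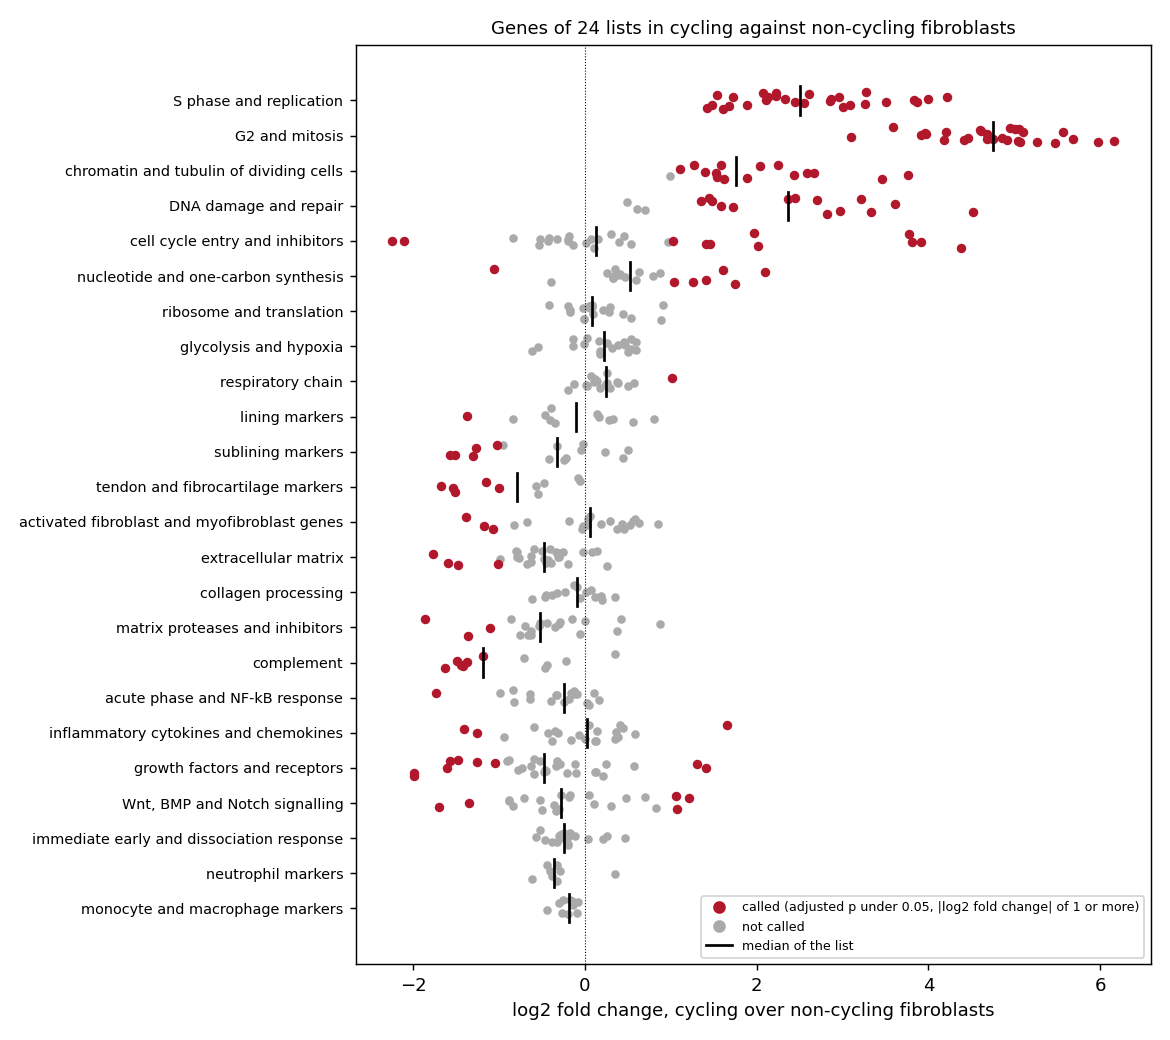
Log2 fold change of cycling over non-cycling fibroblasts (x axis) for each gene of 24 lists (rows), selecting genes left out, with called genes in red, other genes in grey and the list's median as a black bar. Medians run from 4.75 for G2 and mitosis to -1.19 for complement, against -0.02 for all genes tested.

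The cycle machinery itself was higher throughout, as part of the programme on which the cells were selected, so its counts describe the cells and are no separate finding. All 28 S-phase genes (median log2 fold change 2.5) and all 29 G2/M genes tested, of 30 listed (median 4.75), were called higher, beside 4.98% of all genes. Tk1, the thymidine kinase of S phase, stood at 165, 104 and 144 CPM in cycling fibroblasts of replicates 1, 2 and 3, against 8.63, 6.43 and 6.08 CPM in non-cycling fibroblasts. Hmmr, a spindle protein gene, stood at 74, 78.4 and 82.5 CPM in the cycling cells, against 0.757, 0.684 and 1.36 CPM in the non-cycling cells, with no overlap in either gene. Ccna2, the cyclin of S phase and G2, averaged 86.7 ± 6.29 CPM in cycling and 2.66 ± 0.316 CPM in non-cycling fibroblasts (log2 fold change 4.95). Mitotic cyclin Ccnb1 averaged 59.9 ± 10.2 CPM in cycling and 2.25 ± 1.49 CPM in non-cycling fibroblasts (log2 fold change 4.75), while Pcna, the sliding clamp of DNA polymerase, averaged 80.5 ± 20.5 CPM in cycling and 17 ± 2.43 CPM in non-cycling fibroblasts (log2 fold change 2.11). Of 16 tested genes of chromatin and tubulin in dividing cells, 15 were called higher, with Stmn1, a regulator of microtubules, at 326 ± 11.3 CPM in cycling and 22.4 ± 0.49 CPM in non-cycling fibroblasts. Outside the lists the highest fold changes at 50 CPM or more belonged to the linker histone gene Hist1h1b (6.62), 2810417H13Rik (5.54), Mxd3 (5.05), the centromere gene Cenph (4.75) and Knstrn (4.58), a gene of kinetochores and spindles, all on the log2 scale.

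Control genes of the cycle moved in both directions. Of 30 tested genes of cycle entry and its inhibitors, 9 were called higher, beside 4.98% of all genes, and 2 lower, beside 3.52%. Ccnd1, the G1 cyclin that couples growth signals to the cycle, stood at 84.8, 69.5 and 132 CPM in cycling fibroblasts of replicates 1, 2 and 3, against 36.2, 25.5 and 39.2 CPM in non-cycling fibroblasts. Its levels did not overlap (log2 fold change 1.41 ± 0.10 (SE), adjusted p = 6.61e-08), but with the selection applied to thinned cells it was at 0.68 and not called. Partner kinase Cdk6 was higher as well (log2 fold change 1.02 ± 0.10 (SE), adjusted p = 2e-06), at 45.4 ± 4.16 CPM in cycling and 20.9 ± 1.71 CPM in non-cycling fibroblasts. The cycle transcription factor genes Foxm1 (3.77), Mybl2 (3.92), E2f7 (4.37) and E2f8 (3.81) were among the 9, with Cdk2, Rbl1 and Cdkn2d, and the values are log2 fold changes.

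The 2 genes called lower were Cdkn1c and Gas6. Cdkn1c, which encodes the cyclin-dependent kinase inhibitor p57, stood at 12.5, 32.4 and 14 CPM in the cycling cells, against 58.7, 86.4 and 83.2 CPM in the non-cycling cells. Gas6, named as a growth arrest-specific gene and encoding a ligand of TAM receptors, stood at 131, 310.2 and 134 CPM in the cycling cells, against 779, 914 and 693 CPM in the non-cycling cells. Every library of the cycling cells was below every library of the non-cycling cells in both genes, with log2 fold change -2.11 ± 0.16 (SE), adjusted p = 1.56e-07 for Cdkn1c and log2 fold change -2.25 ± 0.14 (SE), adjusted p = 1.15e-08 for Gas6. The inhibitors Cdkn1a (p21; log2 fold change 0.39 ± 0.08 (SE), adjusted p = 0.000924) and Cdkn1b (p27; log2 fold change -0.19 ± 0.12 (SE), adjusted p = 0.264) were not called. Cdkn1a averaged 139 ± 40.2 CPM in cycling and 98.8 ± 28.1 CPM in non-cycling fibroblasts, with overlapping libraries.

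Genes that supply DNA precursors and genes of repair were higher in part. Of 20 genes of nucleotide and one-carbon synthesis, 6 were called higher and 1 lower, beside 4.98% and 3.52% of all genes, with a median log2 fold change of 0.53. Psat1, an enzyme of serine synthesis, stood at 14.5, 12.6 and 19.3 CPM in the cycling cells, against 3.03, 3.56 and 3.68 CPM in the non-cycling cells (log2 fold change 2.09 ± 0.20 (SE), adjusted p = 1.45e-06). Dctpp1, which clears modified deoxycytidine triphosphate, averaged 123 ± 28 CPM in cycling and 37.5 ± 5.57 CPM in non-cycling fibroblasts, and the mitochondrial folate enzyme Mthfd2 averaged 51.9 ± 8.22 CPM in cycling and 20.2 ± 3.3 CPM in non-cycling fibroblasts. Tk2, the thymidine kinase of mitochondria, was the gene called lower (-1.06 on the log2 scale, -0.98 and not called without replicate 2). Among 17 genes of DNA damage and repair, 14 were called higher, including Brca1 (2.96), Brca2 (2.44) and Chek1 (2.70).

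Part of the genes that mark sublining and tendon fibroblasts was lower in the cycling cells. Of the tested genes in the sublining list 5 of 15 were called lower and 0 higher, and in the tendon and fibrocartilage list 5 of 10 lower and 0 higher, beside 3.52% of all genes. Smoc2, a matricellular protein gene, stood at 30.4, 63.9 and 30.7 CPM in the cycling cells, against 124, 124 and 93 CPM in the non-cycling cells. Sfrp1 (log2 fold change -1.27) and Sfrp2 (-1.52), inhibitors of Wnt signalling, Cxcl14 (-1.31) and the dermatopontin gene Dpt (-1.02) were the other 4. Comp, a cartilage matrix protein gene, stood at 307, 428 and 300.0 CPM in the cycling cells, against 950.2, 982 and 1135 CPM in the non-cycling cells. The cycling and non-cycling libraries did not overlap in Smoc2 (log2 fold change -1.57 ± 0.14 (SE), adjusted p = 7.02e-07) or Comp (log2 fold change -1.68 ± 0.11 (SE), adjusted p = 1.4e-08). Clu (-1.54), Tnmd (-1.51), Kera (-1.16) and Cilp (-1.0) were the other 4 of the tendon list. Without replicate 3, Dpt (-0.88), Cilp (-0.88) and Kera (-0.59) were no longer called, and nor was Cilp without replicate 1 (-0.80).

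Matrix genes were lower in part. Of 29 extracellular matrix genes outside the selection, 4 were called lower and 0 higher, beside 3.52% and 4.98% of all genes, with a median log2 fold change of -0.47. Ogn, the osteoglycin gene, averaged 29.2 ± 15.7 CPM in cycling and 89.4 ± 14.3 CPM in non-cycling fibroblasts (log2 fold change -1.77 ± 0.14 (SE), adjusted p = 2.58e-07), Col14a1 averaged 110.5 ± 56.1 CPM in cycling and 292 ± 44.4 CPM in non-cycling fibroblasts (log2 fold change -1.59 ± 0.14 (SE), adjusted p = 6.52e-07), Lama2 was at -1.48 and Eln, the elastin gene, at -1.01 on the log2 scale. Eln was at -0.88 and -0.94 and not called without replicate 1 or replicate 2. Of the 15 collagen-processing genes, which fold, hydroxylate and crosslink collagen, 0 were called by edgeR and their median was -0.09 (9 had an unadjusted p under 0.05, and DESeq2 called 0). The selecting collagen Col1a1, given as a description, was at 17056, 19950.5 and 17528 CPM in the cycling cells and 30578, 30475 and 31866 CPM in the non-cycling cells.

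None of 21 tested markers of activated fibroblasts and myofibroblasts was called higher in the cycling cells, and 3 were called lower, beside 4.98% and 3.52% of all genes, so that the absence of higher calls is near the background. Fap, the fibroblast activation protein gene, stood at 26.7, 44.5 and 26.7 CPM in the cycling cells, against 75.8, 80.3 and 79.1 CPM in the non-cycling cells (log2 fold change -1.39 ± 0.12 (SE), adjusted p = 6.89e-07). Periostin gene Postn averaged 427 ± 209.5 CPM in cycling and 809 ± 257 CPM in non-cycling fibroblasts (log2 fold change -1.08 ± 0.08 (SE), adjusted p = 1.55e-07), or -0.98 and not called under library totals, and Aspn, the asporin gene, was at -1.18 on the log2 scale, or -0.99 and not called without replicate 3. Acta2, the smooth muscle actin of myofibroblasts, averaged 63.8 ± 18.4 CPM in cycling and 44.3 ± 11.8 CPM in non-cycling fibroblasts and was not called (log2 fold change 0.43 ± 0.09 (SE), adjusted p = 0.00147).

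Complement had the lowest median of the 24 lists drawn, and none of its genes was called higher. Complement genes are made by synovial fibroblasts as well as by the liver. C3, the component on which the activation pathways converge, is kept in the acute phase list and stood at 873, 1119 and 570.2 CPM in the cycling cells, against 2626, 2739 and 2349 CPM in the non-cycling cells. C4b stood at 90.6, 85 and 70.6 CPM in the cycling cells, against 229, 224 and 251 CPM in the non-cycling cells. The groups did not overlap in either gene (log2 fold change -1.74 ± 0.11 (SE), adjusted p = 1.4e-08 for C3 and log2 fold change -1.63 ± 0.10 (SE), adjusted p = 8.08e-09 for C4b). Of 11 tested genes in the complement list, 6 were called lower (median -1.19), beside 3.52% of all genes. Besides C4b they included the C1 protease genes C1ra (-1.37) and C1s1 (-1.42), the factor B gene Cfb (-1.19) and the C1 inhibitor gene Serping1 (-1.45), with log2 fold changes in brackets. In each of these named genes the 3 cycling sums were below the 3 non-cycling ones. C3 was the only gene of 19 in the acute phase and NF-kB list called in the full data. Saa3, the acute-phase serum amyloid gene of fibroblasts, lay just short of the fold threshold (log2 fold change -0.99 ± 0.10 (SE), adjusted p = 3e-06), at 5708, 4345 and 4502 CPM in the cycling cells, against 10194, 6553 and 10689.9 CPM in the non-cycling cells, and passed it in 9 of 14 alternatives.

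Growth factor genes were called lower more often than higher, 7 against 2 of 31 tested, beside 3.52% and 4.98% of all genes. Igf1, insulin-like growth factor 1, stood at 128, 305 and 123 CPM in the cycling cells, against 639.9, 769.7 and 528 CPM in the non-cycling cells. Its binding protein gene Igfbp4 stood at 1223, 1694 and 1208 CPM in the cycling cells, against 3502, 3449 and 3636 CPM in the non-cycling cells. The groups did not overlap in either gene (log2 fold change -2.0 ± 0.13 (SE), adjusted p = 2.81e-08 for Igf1 and log2 fold change -1.47 ± 0.10 (SE), adjusted p = 1.94e-08 for Igfbp4). Fgf10 (-1.99), Igf2 (-1.61), Igfbp3 (-1.58), Fgf2 (-1.25) and Pdgfrl (-1.05) were the other 5 called lower. Fgf2 was not called without replicate 2 (-1.02), nor was Pdgfrl without replicate 3 (-0.74). Of the genes called higher, the EGF-family ligand gene Ereg stood at 10.1, 30.8 and 13.8 CPM in the cycling cells, against 5.75, 4.65 and 7.51 CPM in the non-cycling cells. The level of Ereg was highest in replicate 2, and without that library it was not called (0.76).

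Of 23 tested Wnt, BMP and Notch genes, 3 were called higher and 2 lower, beside 4.98% and 3.52% of all genes. Inhba, which encodes the activin A subunit, stood at 171, 227 and 143 CPM in the cycling cells, against 81.1, 71.6 and 82.1 CPM in the non-cycling cells, with no overlap (log2 fold change 1.08 ± 0.12 (SE), adjusted p = 7.91e-06). Its fold change was 0.83 and under the threshold without replicate 2. The Notch target Hes1 (1.06) was not called without replicate 1 (0.95) or 2 (0.96), nor was Bmp2 (1.21) without replicate 2 (0.56). The Inhba call was also lost when the members were limited to cells with all 5 selecting genes (0.55). Called lower were Bmp5 (-1.35) and Sfrp4 (-1.70), an inhibitor of Wnt signalling that missed the threshold by DESeq2 (adjusted p = 0.0522) and with the selection applied to thinned cells (-0.62).

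Among genes of tissue destruction and inflammation, Mmp13 and Cxcl12 were lower and most were not called. Of 21 tested matrix proteases and inhibitors 3 were called lower and 0 higher, beside 3.52% and 4.98% of all genes. Mmp13, the collagenase that cuts type II collagen, stood at 53.7, 64.7 and 92.1 CPM in the cycling cells, against 273, 226 and 223 CPM in the non-cycling cells (log2 fold change -1.86 ± 0.14 (SE), adjusted p = 7.76e-08). Mmp2 averaged 673 ± 38.1 CPM in cycling and 1351 ± 71.9 CPM in non-cycling fibroblasts (log2 fold change -1.10 ± 0.07 (SE), adjusted p = 2.67e-08), Mmp11 was at -1.36 on the log2 scale, and the stromelysin gene Mmp3 was not called (log2 fold change -0.53 ± 0.11 (SE), adjusted p = 0.00152). In the cytokine and chemokine list 1 of 22 genes was called higher and 2 lower, counts near those same shares of all genes. Cxcl12, the chemokine that holds CXCR4-bearing cells in tissue, stood at 360.0, 362 and 250.4 CPM in the cycling cells, against 806, 734 and 849.5 CPM in the non-cycling cells, with the groups apart (log2 fold change -1.41 ± 0.11 (SE), adjusted p = 1.81e-07). Il11 was called higher (1.65), but its levels were 1.01, 33.7 and 0.997 CPM in the cycling cells, against 2.42, 3.15 and 2 CPM in the non-cycling cells, so the call rested on replicate 2, without which it turned to -1.18. Ccl19, a chemokine for T cells and dendritic cells, was lower (-1.26). Il6 averaged 26.1 ± 8.82 CPM in cycling and 22.6 ± 8.27 CPM in non-cycling fibroblasts and Ccl2 188 ± 36.9 CPM in cycling and 116 ± 13.7 CPM in non-cycling fibroblasts, and neither was called (0.12 and 0.58 on the log2 scale). Tnfsf11, which encodes the osteoclast factor RANKL, averaged 17 ± 1.5 CPM in cycling and 24.9 ± 6.32 CPM in non-cycling fibroblasts (log2 fold change -0.60 ± 0.14 (SE), adjusted p = 0.00469).

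**Figure D3:**
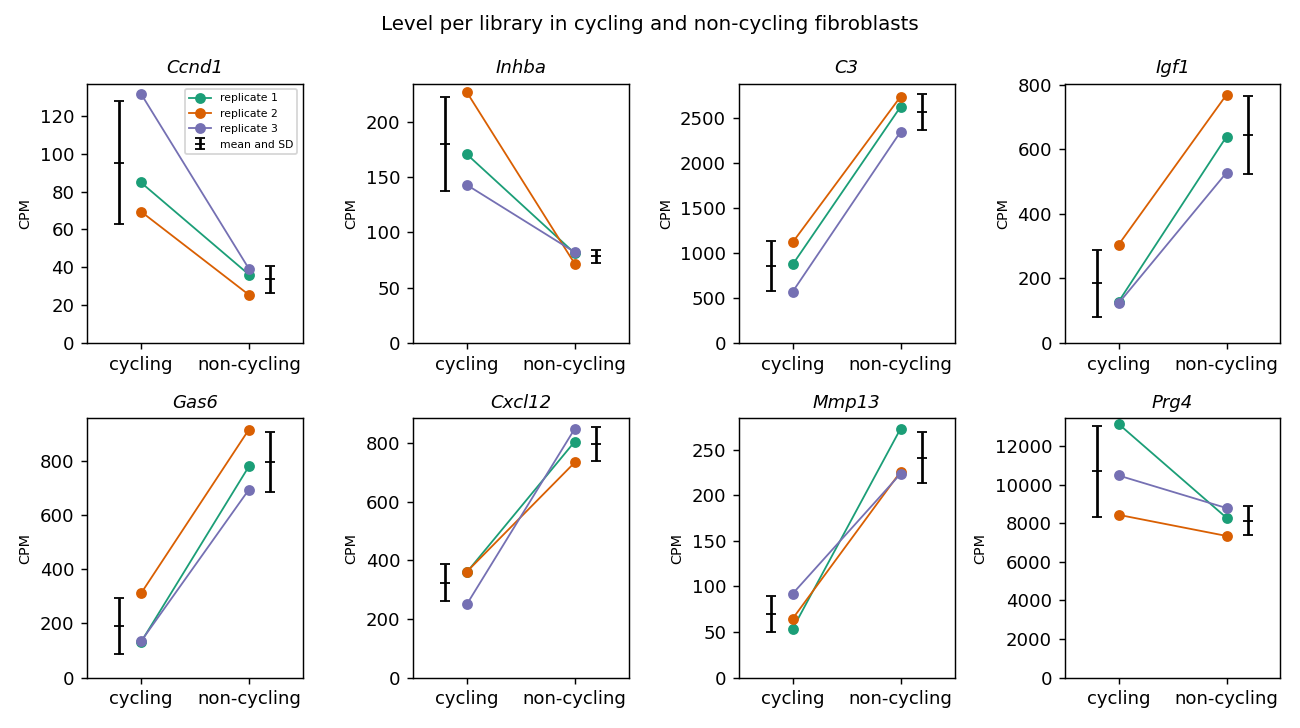
Level of 8 genes in CPM of summed UMIs (y axes from 0), with a line joining the cycling sum (left) and the non-cycling sum (right) of each library and black marks for the mean and SD of 3 libraries. Ccnd1 and Inhba are higher in the cycling sum of every library, C3, Igf1, Gas6, Cxcl12 and Mmp13 are lower in every library, and Prg4 has a log2 fold change of only 0.28.

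Several programmes held few or no calls, beside 4.98% of all genes called higher and 3.52% called lower. In lists this short, few or no calls are near the background. Prg4, the lubricin gene of the lining, stood at 13134, 8430.0 and 10467 CPM in the cycling cells, against 8275, 7336 and 8781 CPM in the non-cycling cells, and was not called (log2 fold change 0.28 ± 0.09 (SE), adjusted p = 0.0309). Of 12 lining genes only Htra4 was called, lower (-1.37), and without replicate 3 it was not (-0.96). The layer markers Thy1 (log2 fold change -0.02 ± 0.10 (SE), adjusted p = 0.896), Cd34 (log2 fold change 0.45 ± 0.14 (SE), adjusted p = 0.0197) and Fmod (log2 fold change -0.08 ± 0.15 (SE), adjusted p = 0.719) were not called, with Thy1 at 103 ± 34.9 CPM in cycling and 95 ± 12.3 CPM in non-cycling fibroblasts. In cells with no UMI of Csf1r or of Ptprc, the leukocyte phosphatase gene, Fmod was at -1.26 and was called. Ribosome and translation (0 of 19), glycolysis and hypoxia (0 of 20) and immediate early and dissociation genes (0 of 19) had medians of 0.08, 0.22 and -0.24 and no call in either direction by edgeR's quasi-likelihood test. Unadjusted p was under 0.05 for 11, 11 and 14 of their genes, and DESeq2 called 0, 0 and 0. Cytochrome c gene Cycs was the only call of 19 respiratory chain genes, at a log2 fold change of 1.01, and was not called without replicate 1 (0.97) or 3 (0.88). Interferon-stimulated genes held 2 lower calls of 14, Ifit1 (-1.13; -0.81 without replicate 3) and Ifit3 (-1.07; -0.79 without replicate 2), both no longer called there. The long noncoding RNA H19 averaged 543 ± 332 CPM in cycling and 1263 ± 312 CPM in non-cycling fibroblasts (log2 fold change -1.45 ± 0.13 (SE), adjusted p = 5.58e-07), while Malat1 was not called (log2 fold change 0.03 ± 0.10 (SE), adjusted p = 0.818).

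Outside the lists, the largest decreases at 50 CPM or more belonged to Cyp2f2, a cytochrome P450 gene, Megf6, Ggt5, Cpxm1 and the potassium channel gene Kcnj15. Cyp2f2 stood at 12.2, 17.4 and 10.8 CPM in the cycling cells, against 72, 58.4 and 48.4 CPM in the non-cycling cells (log2 fold change -2.22 ± 0.13 (SE), adjusted p = 8.62e-09), and the other 4 had log2 fold changes of -1.96, -1.88, -1.86 and -1.84.

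Levels of C3, Gas6 and Cxcl12 ran in order with the number of selecting genes detected, also among the cells outside the selection. In Ccnd1 and Prg4 the order did not hold at every step. C3 in gated fibroblasts with 0, 1, 2, 3, 4 and 5 cycle genes stood at 2571, 2089, 1670.0, 1263, 828 and 700.2 CPM. Gas6 stood at 795, 659.8, 529.6, 328, 175 and 147 CPM and Cxcl12 at 797, 705, 647, 457, 303 and 281 CPM over the same classes. Ccnd1 stood at 33.6, 43.2, 62.8, 71.6, 105 and 99.4 CPM, and Prg4 at 8131, 8668, 11199, 10009, 11642 and 10294 CPM. Fibroblasts with 2 cycle genes thus lay between the non-cycling and the cycling cells in C3, Gas6, Cxcl12 and Ccnd1. Depth ran the same way, with medians of 10613.5, 14512 and 17823 UMIs in cells with 0, 1 and 2 genes and 19892.5 UMIs in the members. In the thinned comparison of the cycling with the non-cycling cells, C3 was at -1.85, Gas6 at -2.19, Cxcl12 at -1.40 and Ccnd1 at 1.17 on the log2 scale, and all 4 were called. Its classes were chosen on all UMIs, and with the selection applied to thinned cells Ccnd1 was not called.

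**Figure D4:**
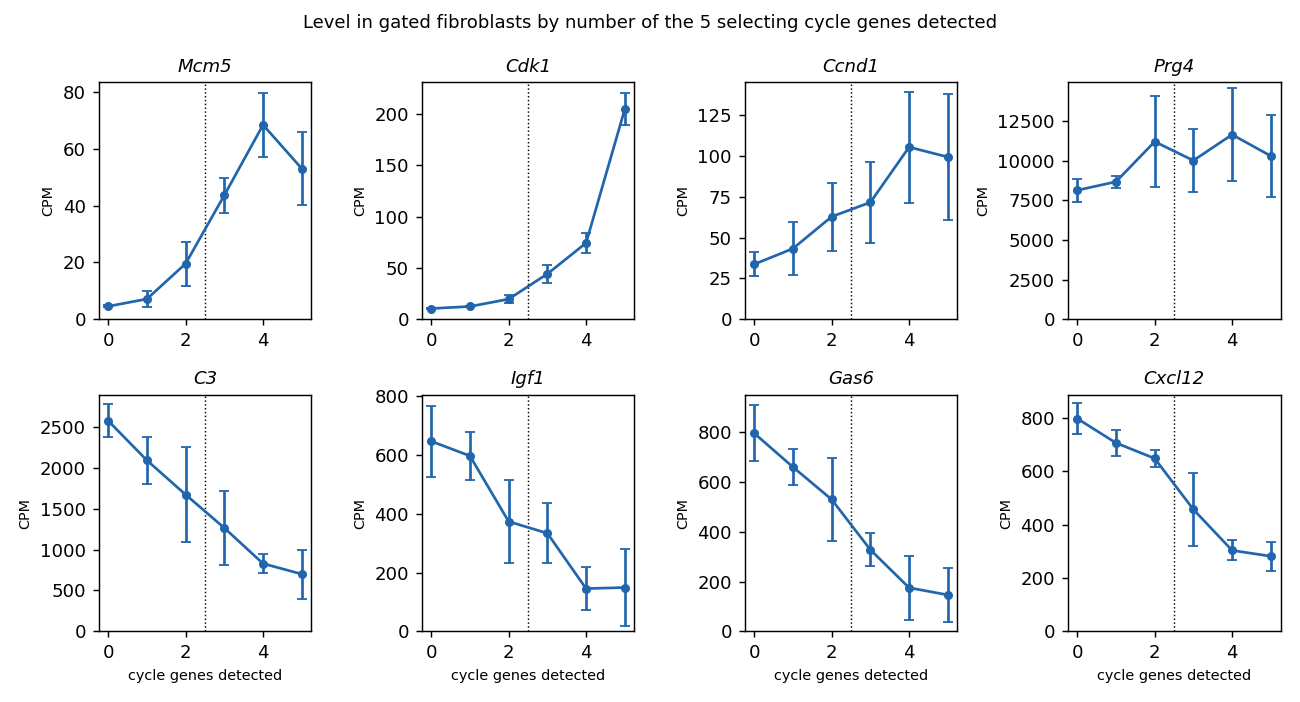
Level in CPM (y axes from 0) of 8 genes in gated fibroblasts with 0 to 5 of the 5 selecting cycle genes detected (x axis), as mean and SD of 3 libraries, with a dotted line between cells outside (left) and inside the selection. C3, Igf1, Gas6 and Cxcl12 are highest in cells with 0 genes, and Cdk1 is highest in cells with 5.

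Cycling fibroblasts included cells with the lining and with the sublining marker. Prg4-high cells held at least 1% of their UMIs from Prg4 and no Thy1, and Thy1-positive cells held Thy1 and less Prg4, in cells thinned to 3000 UMIs. Prg4-high cells made up 30.9%, 23.7% and 37.2% of the cycling fibroblasts in replicates 1, 2 and 3, against 19.4%, 21.0% and 23.7% of the non-cycling ones. Thy1-positive cells made up 16.3%, 26.3% and 8.50% of the cycling and 15.6%, 21.4% and 15.5% of the non-cycling fibroblasts. Of all cells of the class, 49.9 ± 2.01% of the cycling and 59.6 ± 3.68% of the non-cycling fibroblasts held Prg4 under 1% and no Thy1 (SD, n = 3). Cells with Prg4 at 1% or more and Thy1 as well were counted apart. The share of cells that cycled was 7.27 ± 2.38% of Prg4-high, 5.11 ± 2.25% of Thy1-positive and 4.73 ± 1.38% of Fmod-positive fibroblasts (SD, n = 3). The difference of Prg4-high minus Thy1-positive was 2.32, -2.30 and 6.46 percentage points in replicates 1, 2 and 3. At this depth it thus changed sign between libraries (exact two-sided paired permutation test, p = 0.5, where 0.25 is the smallest p that 3 libraries allow). Thinned to 2000 UMIs it was 6.23, -2.10 and 4.02 points (p = 0.5, same exact test). At 5000 UMIs the difference was 5.35, 0.86 and 8.85 points, with 1 sign in every library (p = 0.25, same exact test).

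Cycling cells of the 2 kinds differed from each other in other genes as well. These values describe cells chosen by Prg4 and Thy1, come from 82 to 167 cells of a kind, carry no test and are shown for genes picked after their values were seen. Prg4 itself averaged 26561 ± 4239 CPM in Prg4-high and 2361 ± 443 CPM in Thy1-positive cycling fibroblasts. Inhba averaged 462 ± 252 CPM in Prg4-high and 48.5 ± 15.7 CPM in Thy1-positive cycling fibroblasts, against 203 ± 22.5 and 34.4 ± 18.4 CPM in the Prg4-high and Thy1-positive non-cycling cells. Hbegf, an EGF receptor ligand gene, averaged 282 ± 110.0 CPM in Prg4-high and 15.2 ± 7.82 CPM in Thy1-positive cycling fibroblasts, and Has1, a hyaluronan synthase gene, 201 ± 73 CPM in Prg4-high and 59.2 ± 48.6 CPM in Thy1-positive cycling fibroblasts. On the other side stood Mfap5, a microfibril gene, at 97.5 ± 49.2 CPM in Prg4-high and 551 ± 66.5 CPM in Thy1-positive cycling fibroblasts, and Pi16, a marker of adventitial fibroblasts, at 26.9 ± 34.5 CPM in Prg4-high and 258 ± 133 CPM in Thy1-positive cycling fibroblasts. C3 was lower than in the non-cycling cells of either kind, at 405 ± 66.7 CPM in Prg4-high and 1382 ± 248 CPM in Thy1-positive cycling fibroblasts, against 772 ± 101 and 3626 ± 300.2 CPM in the non-cycling Prg4-high and Thy1-positive cells. Saa3 was at 6065 ± 2311 CPM in Prg4-high and 4792 ± 948 CPM in Thy1-positive cycling fibroblasts, against 13795 ± 929 and 4929.9 ± 2119 CPM in the non-cycling cells of the 2 kinds, with the means apart by more than their SDs in the Prg4-high cells and within them in the Thy1-positive cells. Gas6 was at 54.5 ± 4.35 CPM in Prg4-high and 295 ± 64.5 CPM in Thy1-positive cycling fibroblasts, against 211 ± 80.6 and 969 ± 116 CPM in the non-cycling cells.

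The share of fibroblasts that cycled was set beside those of other lineages of the same libraries. With all UMIs, cycling cells were 13.5%, 15.0% and 13.5% of gated fibroblasts in replicates 1, 2 and 3 (exact 95% intervals 11.4% to 15.9%, 12.9% to 17.3% and 12.0% to 15.1%, which cover counting error only). After thinning to 3000 UMIs, which left out 156 shallower fibroblasts, the share was 5.59%, 4.98% and 6.12%, a mean of 5.57 ± 0.568% (SD, n = 3). Phagocytes held at least 2 UMIs of Csf1r, none of Pdgfra or Cdh5 and under 1% collagen UMIs. Endothelial cells held Cdh5, no Pdgfra and at most 1 UMI of Csf1r. By the same cycle genes, phagocytes cycled at 1.63 ± 0.359% thinned and 3.99 ± 1.24% with all UMIs. Endothelial cells cycled at 6.18 ± 0.692% thinned and 11.1 ± 2.04% with all UMIs. Thinning kept 3673 of 3829 fibroblasts, 7515 of 8284 phagocytes and 1594 of 1980 endothelial cells, so the lineages lost unlike parts of their cells. Fibroblasts exceeded phagocytes by 3.99, 2.98 and 4.83 percentage points in replicates 1, 2 and 3, in the same direction in every library (exact two-sided paired permutation test, p = 0.25, the smallest possible). Fibroblasts minus endothelial cells gave 0.132, -1.24 and -0.724 percentage points after thinning (p = 0.5, same exact test). With all UMIs the same difference had the other sign on average, at 2.69, 5.70 and 0.147 percentage points (p = 0.25, same exact test). As a partial measure of free RNA, barcodes with a neutrophil profile were counted at the same thinned depth. Of 744 such barcodes, 3 held 3 or more cycle genes (0.403%, exact 95% interval 0.0832% to 1.17%). Their gate asked for Csf3r with S100a8 or S100a9 and for no UMI of Pdgfra, Csf1r, Cdh5, Elane or Ngp. It thus left out barcodes that held those RNAs of other cells or precursors, so the share is not a full rate of free RNA. These barcodes had a median of 3761 UMIs before thinning, against 13295 UMIs in the fibroblasts that were thinned.

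**Figure D5:**
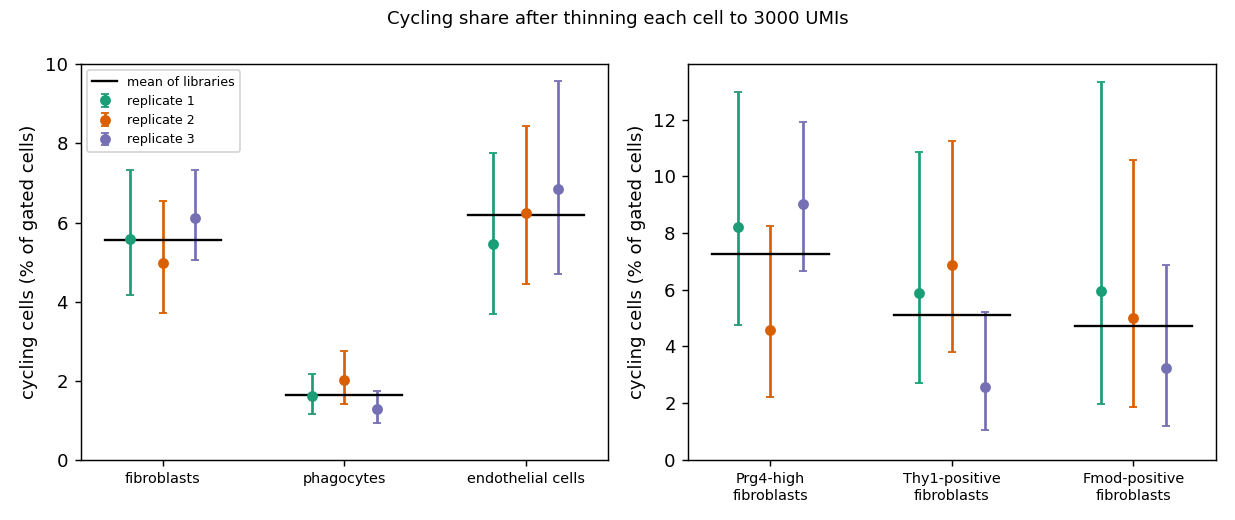
Share of gated cells with at least 3 of 5 cycle genes (y axes from 0, %) after thinning to 3000 UMIs, by lineage (left) and for fibroblasts by marker (right), with a point per library, its exact 95% binomial interval and the mean as a black line. All 3 fibroblast points lie above all 3 phagocyte points, and the points of the marker groups overlap.

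Whether genes changed with cycling in fibroblasts as they did in phagocytes was tested as the difference of the 2 changes. The comparison used 312 cycling and 6003 non-cycling phagocytes. Of 13030 genes, 972 (7.46%) were called with a higher and 361 (2.77%) with a lower change in fibroblasts, 10.2% in all. The split depended on scaling, with 508 higher and 569 lower under DESeq2 size factors and 673 higher and 459 lower under library totals, and the median of all genes was 0.19, -0.02 and 0.07 on the log2 scale. Without replicate 1 the number called was 888, and thinned to 3000 UMIs it was 542. Elane, a granule protease gene of myeloid precursors, averaged 373 ± 472 CPM in them and 4.68 ± 6.26 CPM in non-cycling phagocytes, and the part of such precursors in these differences was not tested.

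Cdkn1a averaged 139 ± 40.2 CPM in cycling and 98.8 ± 28.1 CPM in non-cycling fibroblasts, and 159 ± 55.3 CPM in cycling and 264 ± 55.9 CPM in non-cycling phagocytes (difference 1.39 ± 0.14 (SE), adjusted p = 1.3e-05). Cdkn1c averaged 19.6 ± 11.1 CPM in cycling and 76.1 ± 15.1 CPM in non-cycling fibroblasts, and 3.82 ± 0.819 CPM in cycling and 2.78 ± 0.399 CPM in non-cycling phagocytes. It was thus low in both phagocyte classes, and a difference of the changes would only restate the decrease in fibroblasts. The same holds for Mmp13, at 16.1 ± 8.04 CPM in cycling and 17.2 ± 5.58 CPM in non-cycling phagocytes, for Comp, at 38.4 ± 6.75 CPM in cycling and 44.9 ± 7.19 CPM in non-cycling phagocytes, and for Cxcl12, at 51.7 ± 7.63 CPM in cycling and 56.0 ± 9.52 CPM in non-cycling phagocytes. The selecting collagen Col1a1 was at 1679 ± 173 CPM in cycling and 1695 ± 186 CPM in non-cycling phagocytes. For Cdk1, Ccnb1, Ccna2 and Mcm5 no difference was called (adjusted p = 0.151, 0.975, 0.583 and 0.0895, edgeR). Of 29 G2/M genes, 11 had a larger change in fibroblasts and 0 a smaller one, beside 7.46% and 2.77% of all genes, and the count was 7 under DESeq2 size factors, 5 without replicate 1 and 2 after thinning. Kif23, a motor protein gene of cell separation that was called before but not after thinning (1.35), was at 62.3 ± 9.17 CPM in cycling and 2.05 ± 0.534 CPM in non-cycling fibroblasts, and 58.2 ± 12.8 CPM in cycling and 6.82 ± 0.551 CPM in non-cycling phagocytes. Of the 19 immediate early genes 12 had a higher change in fibroblasts, for example Atf3, a stress-induced transcription factor gene, at 21.4 ± 4.92 CPM in cycling and 24 ± 3.94 CPM in non-cycling fibroblasts, and 29.8 ± 9.8 CPM in cycling and 108 ± 12.3 CPM in non-cycling phagocytes (difference 1.76 ± 0.19 (SE), adjusted p = 2.7e-05). In phagocytes the cycling cells were the lower ones, while in fibroblasts the SDs overlapped.

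The same test against endothelial cells (217 cycling and 1283 non-cycling) called 208 of 12405 genes (1.68%) with a higher and 41 (0.331%) with a lower change in fibroblasts, 2.01% in all. These calls were not stable, with 0 by edgeR without replicate 1 (1339 genes had an unadjusted p under 0.05, and DESeq2 called 35), 118 without replicate 2 and 7 after thinning. None of 28 S-phase and 29 G2/M genes was called by edgeR in the full data (4 and 6 had an unadjusted p under 0.05, and DESeq2 called 0 and 0). Inhba averaged 180.2 ± 42.7 CPM in cycling and 78.3 ± 5.81 CPM in non-cycling fibroblasts, and 17.4 ± 11.3 CPM in cycling and 39.6 ± 18.2 CPM in non-cycling endothelial cells (difference 2.25 ± 0.46 (SE), adjusted p = 0.0167), which was not called without replicate 1 (2.38), without replicate 2 (1.56) or after thinning (1.31). Cxcl12 averaged 324 ± 63.7 CPM in cycling and 797 ± 58.1 CPM in non-cycling fibroblasts, and 318 ± 51.5 CPM in cycling and 426 ± 90.1 CPM in non-cycling endothelial cells (difference -1.01 ± 0.24 (SE), adjusted p = 0.0379), and it was called in 3 of 11 alternatives. Of 8 neutrophil markers 4 and of 8 leukocyte markers 3 were called with a higher change in fibroblasts. Retnlg, a neutrophil gene, was at 181 ± 80.3 CPM in cycling and 215 ± 62.5 CPM in non-cycling fibroblasts, and 147 ± 76.2 CPM in cycling and 1027 ± 688 CPM in non-cycling endothelial cells, with the highest level in non-cycling endothelial cells. The median depth of those cells was 5825 UMIs, against 10613.5 UMIs in non-cycling fibroblasts, and the part of free RNA in these differences was not tested.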

How the data were processed

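The deposited files hold counts of UMIs per gene and barcode for 3 libraries, made with PISA 1.0 per the file headers. The submitters' processing notes name Seurat 3.0.2, R 3.6 and the build GRCm39. No aligner or annotation is given in the sources read here. The promoter sequences and their coordinates are RefSeq's for the earlier build GRCm38.p6, and no other coordinates are printed.

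UMIs were summed per class and library and tested with edgeR 4.0.16 (R 4.3.3; quasi-likelihood F-test, TMM scaling, filterByExpr), the library as a block because both sums come from the same mice. The 11 genes of the selection were left out of the calls. Doublet scores came from Scrublet in scanpy 1.11.5, and no cell was removed for its score. DESeq2 1.42.0 was an alternative. The test was tried on simulated data. The members and the gene lists were chosen with earlier results of these data known. Named genes were, for each list and direction, the called gene of largest fold change with at least 10 CPM, a fixed set of cycle and fibroblast genes, and outside the lists the 5 largest per direction with at least 50 CPM. Other genes named from a list were chosen after their values were seen. Some genes are not reported here. Libraries were the replicates in every test, and intervals of shares are exact (Clopper-Pearson).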

Additional observations from a re-analysis of the deposited data

Results flagged for a closer look

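The change with cycling differed between fibroblasts and another lineage in 81 tests of a named gene, by edgeR's test of the difference itself, with some genes counted against both lineages. Each value is the log2 change of cycling over non-cycling fibroblasts minus the same change in the other lineage, over 3 libraries.

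Against phagocytes, 47 named genes differed. Cycle genes differed at Chaf1b (1.14), Dut (-1.32), Kif23 (2.0), Lmnb1 (1.14), Cdkn1a (1.39), Cdkn1c (-2.37) and Blm (1.79). Genes of the fibroblast lists with a lower value were Htra1 (-1.39), Thy1 (-1.16), Comp (-1.21), Fap (-1.10), Has2 (-1.52), Mmp11 (-2.58), Mmp13 (-1.5), Pdgfrb (-1.10), H19 (-1.25) and Igf2 (-1.96). Of these, Htra1, Thy1, Has2 and Pdgfrb were not called between cycling and non-cycling fibroblasts. A value can come from a change in either lineage, and a lower one is not by itself a decrease within fibroblasts. Genes of matrix, secretion and surface with a higher value were Pdpn (1.40), Thbs1 (1.35), P4ha1 (1.16), Plau (1.0), Inhba (1.49), Vegfa (1.72) and Slc16a3 (1.83). Among immune and response genes the values were Cxcl10 (2.06), Ccl2 (2.0), Cxcl12 (-1.04), Nfkbiz (1.63), Cd59a (-1.59), Cd74 (1.5), Atf3 (1.76) and Malat1 (1.60). Leukocyte, lymphocyte and erythroid markers stood at Adgre1 (1.93), Cd53 (1.11), Nkg7 (-3.25) and Hba-a1 (-3.29). Phgdh, a serine synthesis gene, and genes outside the lists stood at Phgdh (-3.69), Rasgef1b (2.45), Gm26887 (2.32), Gab1 (2.24), Ass1 (2.17), Tmem51 (2.17), Elane (-5.98), Mpo (-5.35), Prtn3 (-4.11), Atp6v0d2 (-3.04) and Car2 (-2.97). Of these, Comp, Mmp13, Cxcl12 and Cdkn1c were low in cycling and non-cycling phagocytes, so their values rest on the change in fibroblasts. The values fall by 0.21 on the log2 scale at the median of all genes under DESeq2 size factors.

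Against endothelial cells, 34 named genes differed, and none of the calls held in edgeR without replicate 1. Cycle and stromal genes stood at Lmnb1 (1.24), E2f7 (3.23), Hbegf (1.84), Clu (-1.49), Tpm2 (1.23), Cyr61 (-1.56), Inhba (2.25), Vegfa (1.59), Igfbp3 (-2.65), Slc16a3 (1.61) and Phgdh (-1.56). Genes of inflammation and proteolysis stood at Mmp9 (1.25), Adamts4 (-1.20), Cxcl2 (1.58), Cxcl12 (-1.01), Ccl2 (1.31), Ptgs2 (1.51), Ifi27l2a (1.39) and Ier3 (1.18). Markers of other cells and Malat1 stood at Malat1 (1.28), Retnlg (2.20), Fcgr1 (1.44), Ptprc (1.28) and Runx2 (1.96). Outside the lists were Slurp1 (4.63), Penk (2.47), Asprv1 (2.42), Gm5483 (2.32), Rab11fip1 (2.27), Ehd3 (-2.47), Mest (-1.78), Ctla2a (-1.77), Nid2 (-1.65) and Kcnj15 (-1.61). Non-cycling endothelial cells held 1027 ± 688 CPM of Retnlg and 119.8 ± 16.4 CPM of Ptprc, against 181 ± 80.3 and 34.6 ± 2.33 CPM in cycling fibroblasts, and what this does to the differences was not tested.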

How the results depend on the processing

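Thinning every cell to 3000 UMIs left 664 called genes between cycling and non-cycling fibroblasts, and selecting on thinned cells left 319; fewer genes were testable in both. Without the replicate block, the pairing by library, the number was 920, and leaving out 1 library at a time gave 973 to 1200. Against phagocytes it was 542 after thinning, 1093 without the replicate block and 888 to 1268 without 1 library. Against endothelial cells it was 7 after thinning, 135 without the replicate block, 468 with no filter on low counts and 0 to 351 without 1 library, 0 being without replicate 1, where DESeq2 called 35 (an alternative chosen after seeing the data). The Acta2 difference against phagocytes ranged from -0.89 to 1.02 without 1 library. The cycling share of fibroblasts was 3.35% at 2000 UMIs, 8.24% at 5000 and 10.0% with 2 cycle genes required. Prg4-high cells gave 10.9% at 5000 and 14% with 2 genes, Thy1-positive cells 2.52% at 2000 and 8.69% with 2 genes, and Fmod-positive cells 1.43% at 2000 and 9.22% with 2 genes. For named genes the call was unchanged in 697 gene-by-setting comparisons within fibroblasts, lost in 27 and gained in 10. A gene uncalled in both settings counted as unchanged even where its sign turned. Against phagocytes the call was unchanged in 557, lost in 66 and gained in 5, and 1 gene turned its sign with a call. Against endothelial cells the call was unchanged in 459, lost in 113 and gained in 6. Causes were not tested. Each library pools 2 mice, so spread between mice is unknown, depth differs between the classes, and free RNA is in both.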
